A study of Homo sapiens with 6 samples.

Results

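Expression of the Notch signalling genes NOTCH1, NOTCH2, NOTCH3, JAG1, JAG2, LFNG, RBPJ, MAML2, HES1 and HEY1 was compared between A375RIPK4.KO and A375neg melanoma cells. These 10 genes were taken by symbol from the deposited gene table, which lists 20851 genes, and all 10 were found there. A375 is an established human melanoma cell line. A375RIPK4.KO cells were made with CRISPR/Cas9 and a lentiviral guide RNA against RIPK4, a serine/threonine kinase, and the sequenced cells came from 1 clone. A375neg cells, given as GFP controls in the sample labels, carried a nontargeting guide. Each group had 3 libraries of poly(A)-selected RNA, described as biological replicates, and the question was which transcripts differ after loss of RIPK4. With 1 knockout clone, loss of RIPK4 and differences between clones cannot be told apart.

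Notch receptors sit in the plasma membrane and are activated by Jagged or Delta-like ligands on a neighbouring cell. Binding exposes the receptor to cleavage by ADAM proteases and then by gamma-secretase, and the freed intracellular domain enters the nucleus. There it joins the DNA-binding protein RBPJ and a Mastermind-like coactivator. The complex switches on genes, among them some members of the HES and HEY families of transcriptional repressors. In the melanocyte lineage, Notch signalling through HES1 is known for maintaining melanoblasts and melanocyte stem cells.

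RBPJ recognises a core of letters TGGGAA, often preceded by a G (GTGGGAA). These letters were searched on both strands in the 250 bases before each gene start, in RefSeq sequence of GRCh38.p14. The upstream sequences of HES1, HES4, RBPJ and JAG1 are shown, since they set a target gene with adjacent matches, another HES gene, the DNA-binding factor itself and the ligand side by side. Each is written 5′ to 3′ on the strand of its gene and capitals mark a TGGGAA match on either strand.
HES1 chr3:194135898-194136147 (plus strand): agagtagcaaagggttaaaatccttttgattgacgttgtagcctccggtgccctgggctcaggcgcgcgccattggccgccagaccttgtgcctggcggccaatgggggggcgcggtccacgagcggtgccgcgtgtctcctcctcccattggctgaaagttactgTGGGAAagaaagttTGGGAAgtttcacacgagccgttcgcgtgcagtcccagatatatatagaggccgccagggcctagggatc
HES4 chr1:1000098-1000347 (minus strand): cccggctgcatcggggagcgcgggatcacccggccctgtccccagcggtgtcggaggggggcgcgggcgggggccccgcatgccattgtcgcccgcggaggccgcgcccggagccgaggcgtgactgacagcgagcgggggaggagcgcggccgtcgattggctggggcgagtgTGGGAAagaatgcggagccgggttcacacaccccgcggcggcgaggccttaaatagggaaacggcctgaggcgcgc
RBPJ chr4:26319496-26319745 (plus strand): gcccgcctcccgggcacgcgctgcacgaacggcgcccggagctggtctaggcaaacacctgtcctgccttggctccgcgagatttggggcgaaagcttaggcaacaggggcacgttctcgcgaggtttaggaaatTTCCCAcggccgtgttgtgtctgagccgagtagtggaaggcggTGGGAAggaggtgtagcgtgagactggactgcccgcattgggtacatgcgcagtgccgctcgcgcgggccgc
JAG1 chr20:10674000-10674249 (minus strand): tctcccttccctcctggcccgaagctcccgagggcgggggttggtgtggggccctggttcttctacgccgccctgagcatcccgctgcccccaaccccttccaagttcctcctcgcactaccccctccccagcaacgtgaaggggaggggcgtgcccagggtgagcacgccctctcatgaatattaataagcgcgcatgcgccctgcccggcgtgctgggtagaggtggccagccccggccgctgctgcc

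The HES1 upstream sequence held 2 matches, whose first bases lay 84 and 70 bases before the gene start, on the same strand and 14 bases apart. The match at 84 bases was in the longer form. The HES4 sequence, which belongs to a start other than the one in the deposited table, held 1 match, 76 bases before the start, in the longer form. RBPJ had 5 annotated starts with a sequence, and the one shown held 2 matches on opposite strands, 115 and 72 bases before the start, both in the longer form. The other 4 RBPJ windows, among them that of the start given in the deposited table, held no match. No match lay in the JAG1 window, nor in those of JAG2, MAML2, NOTCH1, NOTCH2 or NOTCH3. LFNG had no match at the start that the deposited table uses and 1 match, 248 bases before the start, at a downstream start. At least 1 match was found in 20.8% of the 35116 upstream windows searched and at least 2 matches in 2.9%, and the longer form was found in 5.43%. Of the 10 genes, 9 had an upstream sequence, and their starts gave 14 windows, of which 3 (21.4%) held the core. The 43 other Notch pathway genes with a sequence gave 56 windows, of which 11 (19.6%) held it, so that both shares lay near that of all windows. A match of letters is a description of the sequence, not a measured binding site.

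JAG1 and HES1 were higher and LFNG was lower in A375RIPK4.KO cells, NOTCH2 and NOTCH1 were lower by less than 1.5-fold, and RBPJ, MAML2 and HEY1 did not pass the test. A gene was called when the adjusted p of edgeR's quasi-likelihood test (Benjamini-Hochberg over all genes tested) was under 0.05 and the change was at least 1.5-fold. Of the 10 genes, 9 had enough counts to be tested, and 3 were called, 2 higher and 1 lower. Over all 14443 genes tested, 9.04% were called, 4.39% as higher and 4.65% as lower. With the adjusted p alone, 5 of the 9 passed, against 16.6% of all genes tested. The groups did not overlap in normalized count for 5 of the 9, against 36.5% of all genes tested. The median log2 fold change of the 9 genes was 0.03 and the median of its absolute value was 0.48, against 0.18 over all genes tested. The genes were chosen with earlier results of these data known, so these shares and medians are no evidence that Notch genes changed more than others. Normalization here scaled the raw counts of each library to a common effective library size. In bulk RNA, fewer cells with a transcript and less of it per cell cannot be told apart.

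**Figure D1:**
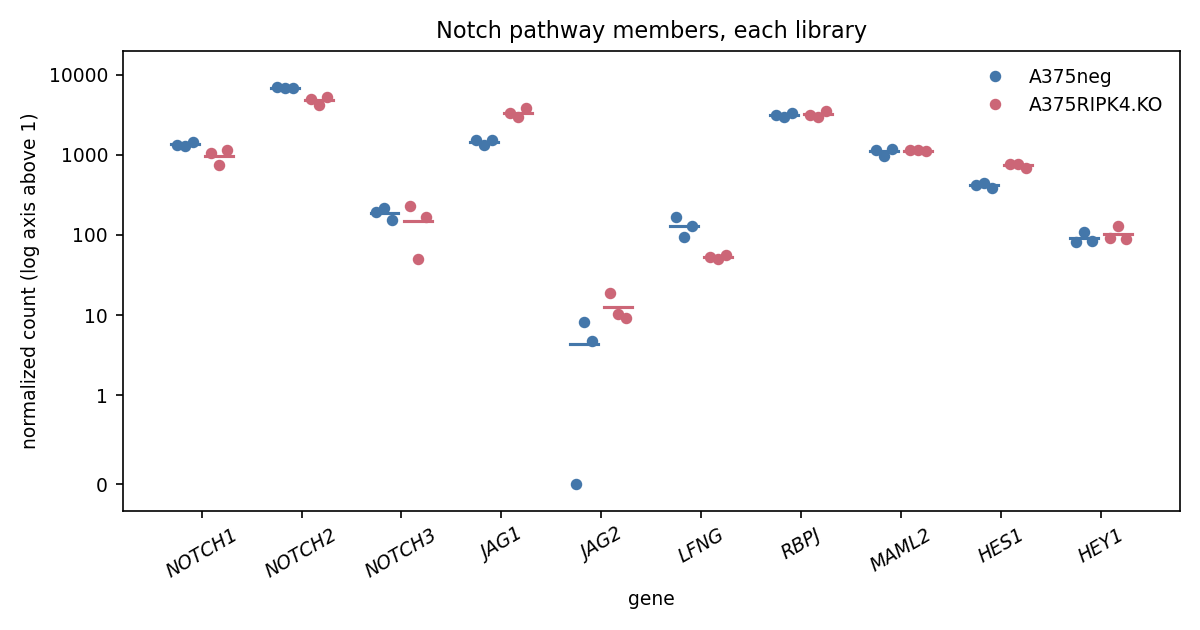
Normalized counts (log axis above 1) of the 10 Notch genes in each library, with blue points for A375neg, red points for A375RIPK4.KO and a line at the mean of each group (n = 3). JAG1 and HES1 points of A375RIPK4.KO lie above all A375neg points, LFNG, NOTCH1 and NOTCH2 points lie below them, and NOTCH3 has 1 low A375RIPK4.KO library at 50.1.

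Before the Notch genes, the labels were checked on RIPK4 itself. RIPK4 had 319, 368 and 404 raw counts in A375neg and 42, 51 and 61 in A375RIPK4.KO, replicates 1 to 3. Every knockout library was below every control library, and the log2 fold change was -2.69 (SE 0.17, edgeR adjusted p = 1.01e-05). Library totals ran from 21882863 to 26694140 counts, so that 3 counts, the limit below which a 0 says little, stood for 0.112 to 0.137 CPM. A375RIPK4.KO replicate 2 stood apart in long transcripts. Over 1723 genes of at least 7 kb, its median deviation from the mean of its own group was -0.12 on the log2 scale. In the other 5 libraries this median was -0.03 to 0.06. The same library also stood apart in 1776 genes with a GC content of at least 60%, at 0.08 against -0.05 to 0.02. Of 8 melanocytic markers 5 were listed, with SOX10 and MITF present in every library and PMEL and TYRP1 at no more than 22 counts. MLANA, TYR and DCT had no entry, so the label melanoma cell line rests here on SOX10, MITF and S100B. The summed normalized count of these markers was 9440 to 10200 in A375neg and 8150 to 8570 in A375RIPK4.KO, with S100B called lower among 4 tested. This sum was mostly SOX10, at a mean of 9128 in A375neg and 7962 in A375RIPK4.KO. MITF was lower by less than 1.5-fold (log2 fold change -0.44, edgeR adjusted p = 0.0449). SOX10 was at -0.20 (edgeR adjusted p = 0.0507) and PMEL at -0.30 (edgeR adjusted p = 0.794). Other cell types gave 1750 to 1840 and 1310 to 1620 for 3 of 5 keratinocyte markers, 319 to 430 and 448 to 499 for 5 of 5 endothelial markers, 184 to 227 and 152 to 159 for 4 of 6 fibroblast and mural markers and 1070 to 1220 and 1170 to 1260 for 3 of 5 leukocyte markers, A375neg first. Of the keratinocyte markers, KRT14 was called lower, with 461 to 607 raw counts in A375neg and 121 to 158 in A375RIPK4.KO (log2 fold change -1.75, edgeR adjusted p = 3.46e-05), and KRT5 had at most 11. The endothelial sum was mostly KDR, called higher (log2 fold change 0.60, edgeR adjusted p = 0.0216), while PECAM1 was called lower, from 21 to 24 raw counts to 4 to 5 (edgeR adjusted p = 0.00556), and CDH5 and VWF had at most 14. LYZ was called lower among the leukocyte markers, from 36 to 38 raw counts to 0 to 13 (edgeR adjusted p = 0.0382), PTPRC had at most 3, and no fibroblast or mural marker was called. The keratinocyte sum was mostly KRT10 (mean 1302 in A375neg and 1297 in A375RIPK4.KO) and the leukocyte sum mostly CD68 (1092 and 1203). The fibroblast and mural sum was mostly PDGFRB (142 and 132), and KRT10, CD68 and PDGFRB were not called. The part of the marker lists in the Notch results was not tested.

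Among the receptors, NOTCH2 (chr1:119911553-120069662) was the most abundant. Its raw counts were 6968, 7339 and 7300 in A375neg and 4522, 4012 and 5186 in A375RIPK4.KO. Every knockout library was below every control library. The normalized mean went from 6882 ± 108 to 4796 ± 550 (SD, n = 3 each), a log2 fold change of -0.52 (SE 0.08, 95% interval -0.71 to -0.33, edgeR adjusted p = 0.00273), which is 1.43-fold lower and short of the 1.5-fold limit. The NOTCH2NL genes are near-identical partial copies of NOTCH2, and how the counting split their reads is not given in the sources used here. NOTCH2NLA had 489 to 520 raw counts in A375neg and 372 to 415 in A375RIPK4.KO, with an edgeR adjusted p of 0.175. With the NOTCH2NL rows added to NOTCH2, the log2 fold change was -0.49 and the edgeR adjusted p 0.00318.

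NOTCH1 (chr9:136494433-136546048), a receptor of the same architecture, had 1344, 1416 and 1528 raw counts in A375neg and 964, 709 and 1132 in A375RIPK4.KO. The groups did not overlap, and the lowest value was in knockout replicate 2. The log2 fold change was -0.48 (SE 0.14, 95% interval -0.80 to -0.16) with an edgeR adjusted p of 0.049. This call at the adjusted p was lost when a library was left out: the edgeR adjusted p was 0.121, 0.106 and 0.155 without A375neg replicates 1, 2 and 3 and 0.0619 without A375RIPK4.KO replicate 1. Without A375RIPK4.KO replicate 2, the low library for long genes, the log2 fold change was -0.31 for NOTCH1 (edgeR adjusted p = 0.0119) and -0.43 for NOTCH2 (edgeR adjusted p = 0.000192). Without A375RIPK4.KO replicate 3, the values were -0.61 and -0.59, and both genes then passed the 1.5-fold limit. When the trend with transcript length was removed from every library, NOTCH1 was at -0.43 (edgeR adjusted p = 0.0125) and NOTCH2 at -0.45 (edgeR adjusted p = 0.000497).

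NOTCH3 (chr19:15159038-15200995), a receptor best known from vascular mural cells, had 192, 233 and 161 raw counts in A375neg and 211, 48 and 168 in A375RIPK4.KO. The groups overlapped, and the spread of the knockout group came from replicate 2. The log2 fold change of -0.31 (SE 0.43, 95% interval -1.28 to 0.66, edgeR adjusted p = 0.675) turned to 0.11 without that library. NOTCH4, the remaining receptor of the family, had no entry in the table.

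The receptors lay in the same order in both groups when counts were divided by the length of the longest transcript (11.39 kb for NOTCH2, 9.31 kb for NOTCH1 and 8.67 kb for NOTCH3). NOTCH2 made up 78.2% ± 0.395 of the length-scaled receptor counts in A375neg and 77.7% ± 3.01 in A375RIPK4.KO (SD, n = 3 each). For NOTCH1 the shares were 19.0% ± 0.819 and 19.2% ± 1.49, and for NOTCH3 2.79% ± 0.507 and 3.05% ± 1.69. For each share the exact two-sided permutation test gave p = 0.9, where 3 against 3 libraries cannot go below 0.1. The 3 shares add up to the whole and are not independent of one another.

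JAG1 (chr20:10637684-10673999), the Jagged ligand that presents itself to Notch receptors on neighbouring cells, rose. It had 1518, 1437 and 1615 raw counts in A375neg and 3013, 2855 and 3758 in A375RIPK4.KO. The lowest knockout library was well above the highest control library. Its normalized mean went from 1457 ± 116 to 3361 ± 419 (SD, n = 3 each), a 2.31-fold rise (log2 fold change 1.21, SE 0.10, 95% interval 0.98 to 1.43, edgeR adjusted p = 5.8e-05). Leaving out any library in turn kept the log2 fold change between 1.11 and 1.29. As shown with the upstream sequences, the 250 bases before JAG1 held no TGGGAA, and only 20.8% of all windows searched held it. Whether RBPJ has a part in the rise was not tested.

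JAG2 (chr14:105140995-105168776), the other Jagged ligand, was near the limit of detection, with 0, 9 and 5 raw counts in A375neg and 17, 10 and 9 in A375RIPK4.KO. These counts were too low for the main test, and without a filter on low counts the edgeR adjusted p was 0.293. JAG1 made up 99.7% ± 0.317 of the length-scaled Jagged counts in A375neg and 99.6% ± 0.167 in A375RIPK4.KO (SD, n = 3 each, exact permutation p = 0.9).

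The ratio of JAG1 to NOTCH2, both per kb of transcript, does not depend on how libraries are scaled. It was 0.418, 0.375 and 0.424 in A375neg and 1.28, 1.36 and 1.39 in A375RIPK4.KO. NOTCH2 was thus the more abundant transcript per kb in all 3 control libraries and JAG1 in all 3 knockout libraries. In raw counts, NOTCH2 was above JAG1 in every library, with 4012 to 5186 against 2855 to 3758 in A375RIPK4.KO. The switch therefore rests on dividing by the longest transcript, 11.39 kb for NOTCH2 and 5.94 kb for JAG1. The mean ratios were 0.406 ± 0.0265 and 1.34 ± 0.0587 (SD, n = 3 each), and the exact two-sided permutation test gave p = 0.1, the smallest it allows. JAG1 and NOTCH2 had each already separated the groups, in opposite directions. The outcome of this test was thus fixed in advance and adds no support. The ratio of NOTCH2 to NOTCH1 was 4.12 ± 0.192 and 4.07 ± 0.484 (exact permutation p = 0.8).

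**Figure D2:**
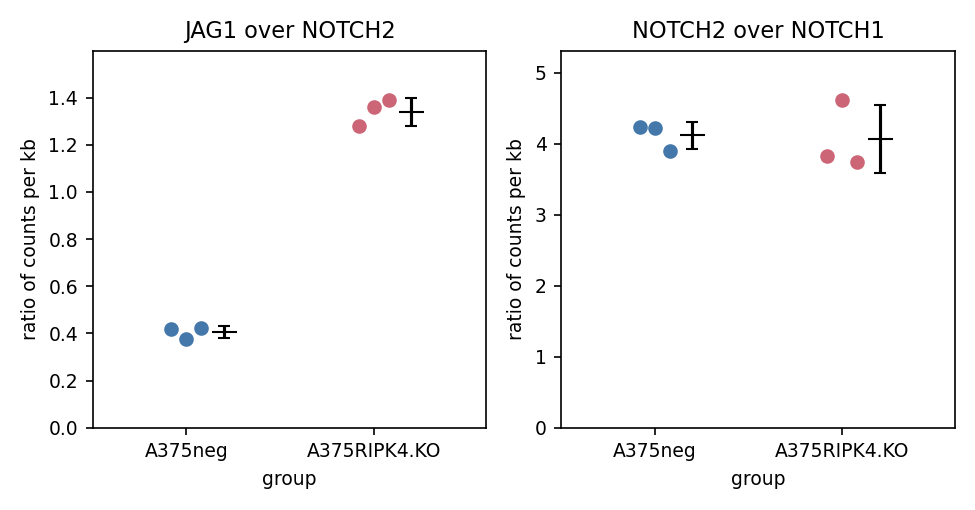
Ratios of counts per kb of longest transcript within each library, JAG1 over NOTCH2 on the left and NOTCH2 over NOTCH1 on the right, with points for libraries and black marks for the mean ± SD (n = 3). JAG1 over NOTCH2 lies between 0.375 and 0.424 in A375neg and between 1.28 and 1.39 in A375RIPK4.KO, while the groups overlap for NOTCH2 over NOTCH1.

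LFNG (chr7:2512529-2529177) encodes lunatic fringe, a Golgi enzyme that extends the O-fucose sugars of Notch receptors and so shifts their response between ligand classes. It had 166, 102 and 138 raw counts in A375neg and 49, 48 and 56 in A375RIPK4.KO. All knockout libraries were below all control libraries, and the control libraries spread more widely. The normalized mean fell from 130 ± 36.0 to 53.5 ± 3.34 (SD, n = 3 each), 2.43-fold lower (log2 fold change -1.28, SE 0.24, 95% interval -1.82 to -0.74, edgeR adjusted p = 0.00582). Over all alternatives the log2 fold change stayed between -1.47 and -1.07. The related fringe genes MFNG and RFNG, which act on the same sugars, were at -0.10 and 0.10, with edgeR adjusted p of 0.914 and 0.622. The RFNG 95% interval, -0.16 to 0.35, excludes a 1.5-fold change in either direction. MFNG had only 13 to 40 raw counts, and its 95% interval reached down to -1.19. A 1.5-fold fall of MFNG lies within that interval, so whether MFNG fell as LFNG did cannot be told.

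RBPJ (chr4:26105449-26435131) and MAML2 (chr11:95976598-96343195), the DNA-binding and coactivator parts of the nuclear complex, did not pass the test. RBPJ had 3122, 3196 and 3544 raw counts in A375neg and 2903, 2826 and 3495 in A375RIPK4.KO, with a log2 fold change of 0.04 (SE 0.08, 95% interval -0.15 to 0.22, edgeR adjusted p = 0.809). MAML2 had 1152, 1041 and 1270 and then 1045, 1088 and 1096, with a log2 fold change of 0.03 (SE 0.09, 95% interval -0.17 to 0.23, edgeR adjusted p = 0.845). The groups overlapped for both genes, and both intervals exclude a 1.5-fold change in either direction.

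HES1 (chr3:194136148-194138732), a repressor of the basic helix-loop-helix class and a direct target of the RBPJ complex, rose. It had 420, 489 and 402 raw counts in A375neg and 711, 736 and 684 in A375RIPK4.KO. The groups were well separated, with little spread within either. The normalized mean went from 417 ± 34.8 to 746 ± 45.9 (SD, n = 3 each), 1.79-fold higher (log2 fold change 0.84, SE 0.09, 95% interval 0.63 to 1.05, edgeR adjusted p = 0.000292). Over all alternatives the log2 fold change stayed between 0.78 and 0.90.

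HEY1, a related repressor and also a known Notch target, had 82, 117 and 88 raw counts in A375neg and 85, 124 and 89 in A375RIPK4.KO. The groups overlapped, with replicate 2 the highest in both. Its log2 fold change was 0.19 (SE 0.22, 95% interval -0.30 to 0.68, edgeR adjusted p = 0.597), so that a 1.5-fold rise lies within the interval. The ratio of HES1 to HEY1 per kb was 6.73 ± 0.689 in A375neg and 10.7 ± 1.82 in A375RIPK4.KO (SD, n = 3 each), without overlap between the groups (exact permutation p = 0.1, the smallest possible). HES1 had already separated the groups and the ratio was not planned. It is therefore no independent support for a difference between HES1 and HEY1.

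**Figure D3:**
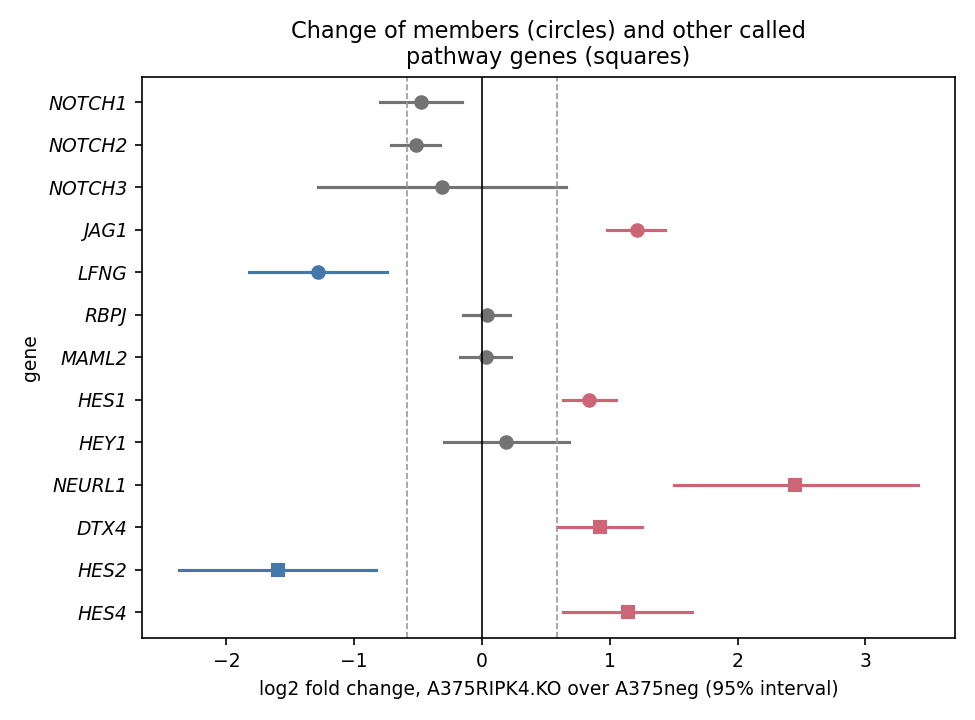
Log2 fold change of A375RIPK4.KO over A375neg with its 95% interval for the 9 tested Notch genes (circles) and the 4 other called pathway genes (squares), with red for called higher, blue for called lower, grey for not called, and dashed lines at 1.5-fold. The intervals of RBPJ and MAML2 are narrow around 0, and NOTCH3 has the widest interval of the 9, -1.28 to 0.66.

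On the scale of normalized counts per kb, NOTCH2 at 604 ± 9.48 and RBPJ at 524 ± 34.8 headed the order in A375neg, followed by HES1 at 264 ± 22.1 and JAG1 at 245 ± 19.5 (SD, n = 3). HES1 and JAG1 were within their spread of each other. MAML2 at 155 ± 18.2 and NOTCH1 at 147 ± 7.99 were also close, and LFNG at 54.8 ± 15.1, HEY1 at 39.7 ± 6.31, NOTCH3 at 21.5 ± 3.62 and JAG2 at 0.744 ± 0.713 came last. In A375RIPK4.KO the order began with JAG1 at 566 ± 70.6, RBPJ at 538 ± 50.1, HES1 at 473 ± 29.1 and NOTCH2 at 421 ± 48.3, where each differed from the next by no more than their spreads combined. JAG1 went from the fourth place to the first, and LFNG at 22.5 ± 1.40 fell behind HEY1 at 45.4 ± 9.54.

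The rest of the pathway was read from the same fit. Of 53 further genes in a list covering ligands, glycosylation, ubiquitination, cleavage, the nuclear complex, corepressors, turnover and targets, 47 were listed and 46 tested. Of these 46, 3 were called higher and 1 lower, or 8.7%, close to the 9.04% of all genes tested. Their median log2 fold change was -0.08. None of the 9 cleavage genes was called, with values from -0.32 to 0.09, and none of 7 corepressors, with values from -0.21 to 0.12. With 9.04% of all genes tested called, a lack of calls among so few genes says little by itself. The edgeR adjusted p was under 0.05, with a change below 1.5-fold, for MIB2 (-0.35) and MAML3 (-0.40), both named after their values were seen. NOTCH4, DLL1, DLK1, HES5, HEYL and NRARP had no entry in the table, and DLL4 had at most 10 raw counts in any library.

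NEURL1, a ubiquitin ligase that acts on Notch ligands, had 13, 4 and 7 raw counts in A375neg and 43, 37 and 42 in A375RIPK4.KO. Its log2 fold change was 2.45 (SE 0.42, edgeR adjusted p = 0.00391), on low control counts. DTX4, a Deltex-family ubiquitin ligase linked to Notch trafficking, had 143, 130 and 134 and then 206, 260 and 238, a log2 fold change of 0.92 (SE 0.15, edgeR adjusted p = 0.00265). The groups did not overlap for either gene.

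Of the HES genes beside HES1, HES4 rose and HES2 fell. HES4, a HES family repressor, had 39, 49 and 51 raw counts in A375neg and 85, 113 and 80 in A375RIPK4.KO, a log2 fold change of 1.14 (SE 0.22, edgeR adjusted p = 0.00767). HES2 had 45, 55 and 51 and then 10, 23 and 12, a log2 fold change of -1.60 (SE 0.34, edgeR adjusted p = 0.0116). The groups did not overlap for either, and the HES2 call was lost without A375neg replicate 2 (edgeR adjusted p = 0.0516) or A375RIPK4.KO replicate 3 (edgeR adjusted p = 0.0541). HES6 was at 0.21 with an edgeR adjusted p of 0.562, and HES7 was at -0.77 on counts of at most 42, with an edgeR adjusted p of 0.189. HEY2, whose coordinates in the deposited table lie outside its RefSeq gene, had 14, 12 and 5 raw counts in A375neg and 21, 19 and 17 in A375RIPK4.KO, with an edgeR adjusted p of 0.165. Of the HES and HEY genes tested, HES1 and HES4 were thus called higher and HES2 lower. HES6, HEY1 and HEY2, above 0, and HES7, below 0, were not called. Whether each of them is a Notch target in these cells was not tested.

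**Figure D4:**
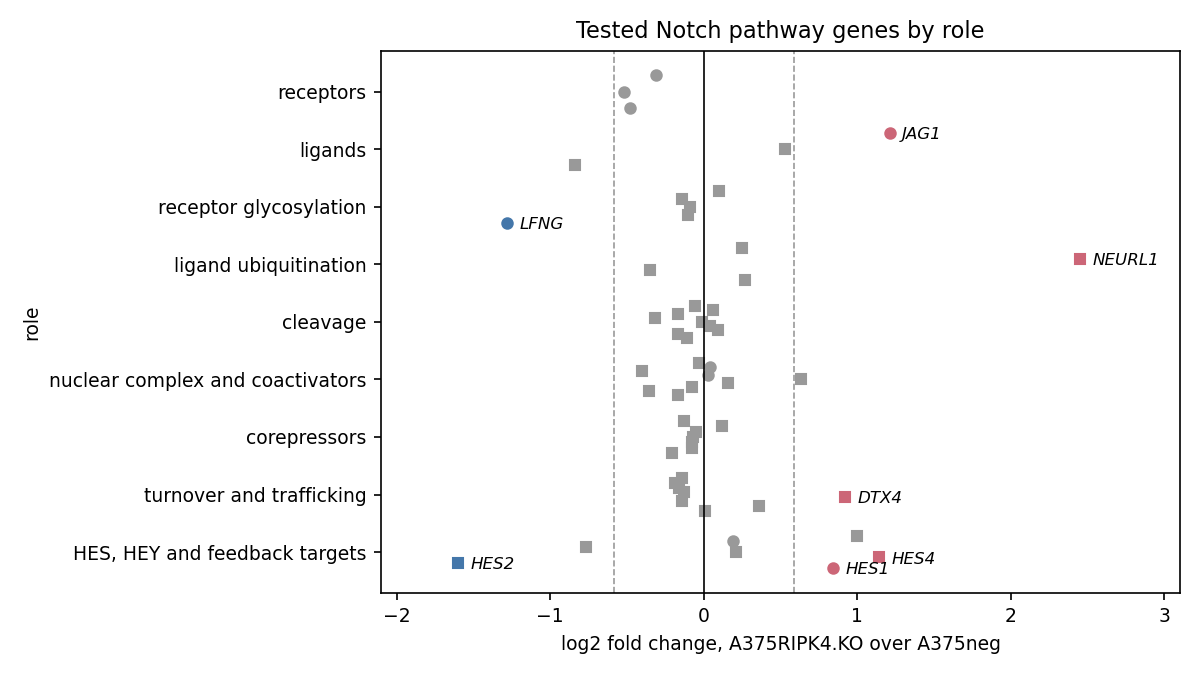
Log2 fold change of A375RIPK4.KO over A375neg for each tested gene of the Notch pathway, in rows by role, with circles for the 9 tested Notch genes under study and squares for the 46 others. Named points are called, red as higher and blue as lower, and dashed lines mark 1.5-fold. The cleavage and corepressor rows lie within -0.32 to 0.12 and all 3 receptors lie left of 0, of which NOTCH3 moves to 0.11 without A375RIPK4.KO replicate 2.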

How the data were processed

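RNA-seq of 3 A375neg and 3 A375RIPK4.KO libraries was used. The authors' provider sequenced strand-specific poly(A) libraries, and the submitters' processing notes name cutadapt, FastQC, HISAT2, HTSeq, DESeq2 and GRCh38.p13 without versions. The strand setting of the counting is not given in the sources used here. The deposited table holds raw counts per gene, which were tested here, and a normalized signal that the authors made by dividing the counts by 1 factor per library (largest difference 0.0764), which was only checked. It also holds the authors' fold changes and p-values, which were not used. Library totals of 21882863 to 26694140 counts limit precision through counting error.

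Counts were filtered with filterByExpr, scaled by TMM and fitted in edgeR 4.0.16 (R 4.3.3) by group, with the quasi-likelihood test and Benjamini-Hochberg adjustment over 14443 genes. The script was tested on simulated data. Shares and ratios were compared with exact permutation tests over libraries, of which the shares were planned and the ratios were not. Where no source says more than biological replicates, p-values measure the spread between these libraries. Lengths and GC content came from the longest GENCODE transcript and were known for 91.3% of tested genes. Gene coordinates and upstream sequences are from RefSeq (GRCh38.p14), and the table's coordinates fell within the same gene for all 10 Notch genes. They lay outside it for HEY2, and CIR1 had no RefSeq coordinates to compare. Alternatives were DESeq2 1.42.0, its size factors in edgeR, other filters (none, or a mean of at least 50 counts), a replicate block, length correction, each library left out and no fold limit, and, chosen after seeing the data, a length and GC correction.

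The genes, the pathway list and the marker lists were chosen with earlier results of these data known. Named are the 10 genes, RIPK4, pathway genes that were called or barely counted, the NOTCH2 copies and listed markers. Others named (MFNG, RFNG, MIB2, MAML3, HES6, HES7 and HEY2) were picked after their values were seen.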

Additional observations from a re-analysis of the deposited data

How the results depend on the processing

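The 3 Notch genes called (JAG1, HES1 and LFNG) were called under every alternative run, at an edgeR or DESeq2 adjusted p of at most 0.0245. With no fold limit the count was 5, and with each library left out it ran from 3 to 5, the highest without A375RIPK4.KO replicate 3, when NOTCH1 and NOTCH2 passed the fold limit. Of the other pathway genes 4 were called, 2 with a mean of at least 50 counts (NEURL1 and HES2 were then not tested) and 3 to 4 with each library left out. RIPK4 stayed between -2.80 and -2.59 with each library left out. With each library left out, the sign changed for NOTCH3 (-0.75 to 0.11, positive without A375RIPK4.KO replicate 2), RBPJ (-0.04 to 0.10, with -0.01 without A375neg replicate 2 and the lowest without A375RIPK4.KO replicate 3) and MAML2 (-0.06 to 0.10, negative without A375neg replicate 2), and the cause was not tested. The differences in share, A375RIPK4.KO minus A375neg, had no fixed sign with each library left out: -0.345 to 1.08 percentage points for NOTCH1, -2.23 to 0.538 for NOTCH2, -0.526 to 1.16 for NOTCH3 and -0.233 to 0.084 for JAG1. The edgeR or DESeq2 adjusted p of NOTCH1 ran from 0.00455 to 0.155 over the alternatives. In edgeR it was also above 0.05, and so not met, with DESeq2 size factors (0.0509) and a mean of at least 50 counts (0.0558). Replicate numbers are shared by the groups, but same-numbered libraries deviated with correlations of 0.08, 0.04 and -0.01, and not every library correlated best with its own number. With the replicate as a block 3 Notch genes and 4 other pathway genes were called, 1266 genes in all against 1306, and RIPK4 was at -2.69. Depth limits JAG2, and MFNG, NEURL1, HES7 and HEY2 rest on few counts.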
